A study of Homo sapiens with 12 samples.

Results

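The genes described here were PI3, which encodes elafin, and 4 further genes of the whey acidic protein (WAP) family, SLPI, WFDC2, WFDC3 and WFDC5. They were taken by symbol from a table of 20263 genes measured by mRNA sequencing. The set was selected on measured values of this table, namely the high level of PI3 after HIF1α knockout and the low level of WFDC5 after HIF2α knockout, so the contrasts of each single knockout with the vector group are described below without a test. The 12 libraries came from U-87 MG, a human glioblastoma cell line, kept at 1% O2, and every group, the control included, was hypoxic. The design record of the sequencing gives 72 h of hypoxia, whereas the methods of the study give a shorter time for mRNA detection in general, and which time these libraries had is not settled here. There were 3 libraries in each of 4 groups: cells with an empty vector (vector), with HIF1α knocked out (HIF1α-ko), with HIF2α knocked out (HIF2α-ko) or with both knocked out (HIF1α/2α-ko). HIF1α and HIF2α are the oxygen-regulated subunits of the hypoxia-inducible factors, and HIF2α is encoded by EPAS1. The study set the knockouts against the vector. It also set the dual knockout against the single knockouts, in assays such as apoptosis, survival of mice, stem cell marker proteins and ABCG2 expression. Here the members were compared between the dual knockout and the vector, and between the dual knockout and each single knockout.

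WAP-domain proteins are mostly small secreted proteins built around a fold of 4 disulphide bonds. Elafin and SLPI (secretory leukocyte protease inhibitor) block neutrophil serine proteases such as neutrophil elastase at epithelial surfaces, and both are induced by inflammatory cytokines. WFDC2, also called HE4, is used as a serum marker of ovarian cancer, whereas less is known of WFDC3 and WFDC5. Most human WAP genes lie in a cluster on chromosome 20.

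The repeated element that joins the members is the disulphide core, and its coding stretch follows to let the copies be compared. Each sequence is 42 bases of coding strand taken from the reference transcripts of the GRCh38 annotation, with the 4 cysteine codons in capitals.
PI3: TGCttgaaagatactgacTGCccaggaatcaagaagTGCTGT
SLPI, copy 1: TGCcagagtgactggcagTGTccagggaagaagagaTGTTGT
SLPI, copy 2: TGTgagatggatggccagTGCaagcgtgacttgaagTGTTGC
WFDC2, copy 2: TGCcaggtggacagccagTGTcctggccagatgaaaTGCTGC
WFDC3, copy 2: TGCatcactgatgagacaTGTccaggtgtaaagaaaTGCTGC
WFDC3, copy 4: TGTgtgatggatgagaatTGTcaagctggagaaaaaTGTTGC
WFDC5, copy 1: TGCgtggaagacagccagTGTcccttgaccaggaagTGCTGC
The 5 genes hold 11 such copies, 1 in PI3, 2 in SLPI, 2 in WFDC2, 4 in WFDC3 and 2 in WFDC5. The copies were found by a pattern that fixes the 4 cysteines and an aspartate. Between genes, 18 to 30 of the 42 bases were identical, the cysteine codons included, so no pair of members was near-identical over this element.

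Expression is given as TPM, in which reads are divided by gene length and each library is scaled to the same total, so the read depth behind a value is unknown. A lower TPM may come from fewer cells that express a gene or from less RNA per cell, and these cannot be told apart here. Nothing in the sample descriptions says that the libraries of a group came from separate cultures, and the p-values measure only the spread between these libraries. HIF1A was at 112, 110 and 152 TPM in the vector and at 57.3, 49.5 and 38.6 TPM in HIF1α-ko. It was at 108, 76.1 and 76.6 TPM in HIF2α-ko and at 89.2, 67.8 and 69.4 TPM in HIF1α/2α-ko, and the last 2 groups overlapped. The HIF1A transcript therefore separates HIF1α-ko from the vector but does not check the loss of HIF1α in HIF1α/2α-ko against HIF2α-ko. EPAS1 lay between 251 and 346 TPM in the 6 libraries of the vector and HIF1α-ko and between 87.6 and 130 TPM in the 6 libraries of HIF2α-ko and HIF1α/2α-ko. VIM, a mesenchymal marker, was at 5635 TPM or more in every library, the glial marker GFAP stayed below 1 TPM, and CDKN2A and CDKN2B, which U-87 MG has lost, were listed at 0 throughout. Vector library 1 stood apart from vector libraries 2 and 3 in PI3 and in several cytokine genes, and it is reported apart below.

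PI3 showed the widest range of the members, from 12.5 to 404 TPM. Its single core is shown above, and the gene (ENSG00000124102) lies on the plus strand of chromosome 20 at 45174876 to 45176544 of GRCh38. In the vector it was at 180 TPM in library 1 but at 15.6 and 14.8 TPM in libraries 2 and 3, so that library 1 was 11.9 times the mean of the other two. In HIF1α-ko the 3 libraries were at 404, 329 and 353 TPM (362 ± 38.5, SD, n = 3). All of them were above every other library of the series, which restates in part the choice of PI3. In HIF2α-ko PI3 was at 86.0, 83.6 and 93.5 TPM (87.7 ± 5.18, n = 3), above vector libraries 2 and 3 and below vector library 1. In HIF1α/2α-ko it was at 12.5, 18.8 and 21.2 TPM (17.5 ± 4.50, n = 3), a range that encloses vector libraries 2 and 3. The order of the knockouts was therefore HIF1α-ko first, then HIF2α-ko, then HIF1α/2α-ko, without overlap, with the place of the vector set by which of its libraries is read. The share of all genes whose knockout groups are free of overlap was not counted.

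The difference of PI3 between HIF1α-ko and vector, which chose the gene, was 3.32 on the log2(TPM + 1) scale with all vector libraries and 4.48 without vector library 1, and 17.3% of the 11731 genes tested were called higher in that contrast. Between HIF2α-ko and vector it was 1.29, or 2.45 without vector library 1. Between HIF1α/2α-ko and vector it was −1.0 with all libraries, and 0.16 without vector library 1, so this direction rests on that library. None of these was tested. The comparison of HIF1α/2α-ko with HIF2α-ko uses no library that chose PI3. There PI3 was 5.01-fold lower in mean TPM, with a log2 difference of −2.29 ± 0.68 (SE), a 95% interval of −3.77 to −0.82 and an adjusted p of 0.0154 by limma over all genes. The adjusted p ranged from 3.13e-06 without vector library 1, which enters the shared estimate of spread, to 0.0457. Against HIF1α-ko, PI3 in HIF1α/2α-ko was 20.7-fold lower, given as a description.

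**Figure D1:**
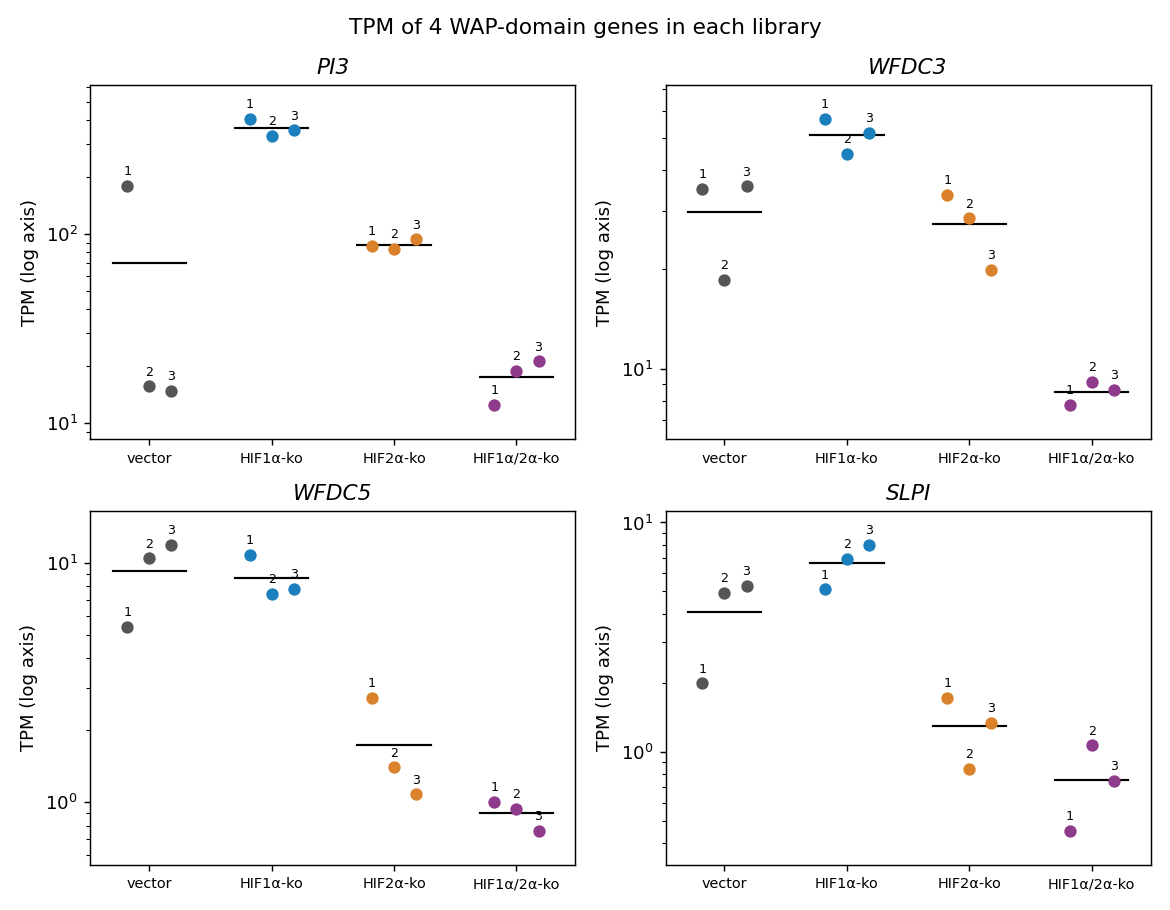
TPM of PI3, WFDC3, WFDC5 and SLPI on log axes in each library of the 4 groups. Points are libraries numbered by replicate and lines are group means. Vector library 1 sits at 180 TPM for PI3, far above vector libraries 2 and 3. HIF1α/2α-ko has the lowest group mean for WFDC3, WFDC5 and SLPI. For PI3 its mean of 17.5 TPM is the lowest only with vector library 1, as vector libraries 2 and 3 average 15.2 TPM.

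SLPI, the secreted inhibitor with 2 cores, was expressed at a low level. The gene (ENSG00000124107) lies on the minus strand at 45252239 to 45254564 of chromosome 20. It was at 1.99, 4.95 and 5.27 TPM in the vector, where library 1 was the lowest, opposite to PI3. It was at 5.10, 6.93 and 7.98 TPM in HIF1α-ko, at 1.71, 0.840 and 1.34 TPM in HIF2α-ko, and at 0.453, 1.06 and 0.745 TPM in HIF1α/2α-ko. The HIF1α/2α-ko libraries were below every vector and every HIF1α-ko library but overlapped with HIF2α-ko. How many of all genes separate in this way was not counted. Compared with the vector, SLPI was significantly lower in HIF1α/2α-ko by 5.39-fold in mean TPM (log2 difference −1.47 ± 0.28, 95% interval −2.08 to −0.86, adjusted p = 0.00106), and the difference was −1.81 without vector library 1. Compared with HIF1α-ko it was 8.84-fold lower in HIF1α/2α-ko (−2.12 ± 0.28, interval −2.73 to −1.52, adjusted p = 0.000223). No difference was called between HIF1α/2α-ko and HIF2α-ko (−0.39 ± 0.28, adjusted p = 0.278), and the interval of −0.99 to 0.22 leaves room for a fall of nearly 1 log2 unit. Without a test, the SLPI difference from the vector was 0.65 for HIF1α-ko (0.31 without vector library 1) and −1.08 for HIF2α-ko (−1.43).

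WFDC2 (ENSG00000101443, plus strand, 45469706 to 45481532) was practically absent. It was listed at 0 in 10 of the 12 libraries and at 0.103 and 0.0985 TPM in HIF1α-ko libraries 2 and 3. It did not pass the expression filter of at least 1 TPM in at least 3 libraries and was not tested, whereas the other 4 members passed it. PI3 and WFDC3 were at 1 TPM or more in 12 libraries, WFDC5 in 10 and SLPI in 9.

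WFDC3, with the most cores of the members, was the second most abundant. The gene (ENSG00000124116) lies on the minus strand at 45747944 to 45791932, and an annotated pseudogene, SPINT5P, and a small RNA gene lie within it on the other strand. In the vector it was at 35.0, 18.5 and 35.6 TPM, with library 2 the lowest and library 1 close to library 3. It was at 56.9, 44.6 and 51.6 TPM in HIF1α-ko, above every vector library, and at 33.7, 28.5 and 19.9 TPM in HIF2α-ko, within the vector range. In HIF1α/2α-ko it was at 7.80, 9.15 and 8.67 TPM (8.54 ± 0.684, n = 3), below every library of the other 3 groups. The share of all genes that separate from other groups in this way was not counted. WFDC3 was significantly lower in HIF1α/2α-ko than in the vector (3.48-fold, log2 difference −1.63 ± 0.24, 95% interval −2.16 to −1.10, adjusted p = 0.000198 by limma), and the difference was −1.49 without vector library 1. It was lower than in HIF1α-ko by 5.97-fold (−2.44 ± 0.24, interval −2.97 to −1.91, adjusted p = 5.58e-05). Against HIF2α-ko it was lower by 3.20-fold (−1.54 ± 0.24, interval −2.07 to −1.01, adjusted p = 0.000307). WFDC3 was called lower in all 3 comparisons with HIF1α/2α-ko. Of the other members, SLPI was tested in all 3 comparisons, whereas PI3 and WFDC5 were not. Left untested were the WFDC3 differences from the vector, 0.81 for HIF1α-ko and −0.09 for HIF2α-ko. The latter turned to 0.05 without vector library 1.

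WFDC5 (ENSG00000175121, minus strand, 45109452 to 45115172) was low wherever HIF2α was knocked out. It was at 5.42, 10.5 and 11.9 TPM in the vector and at 10.9, 7.42 and 7.80 TPM in HIF1α-ko, and these groups overlapped. It was at 2.74, 1.40 and 1.08 TPM in HIF2α-ko and at 1.00, 0.937 and 0.762 TPM in HIF1α/2α-ko. All libraries with HIF2α knocked out were thus below all libraries with HIF2α intact. This restates in part the choice of WFDC5 by HIF2α-ko against vector, and the share of all genes that separate in this way was not counted. The difference between HIF2α-ko and vector, which chose the gene, was −1.89, or −2.20 without vector library 1, and 5.89% of the genes tested were called lower in that contrast. The test open to WFDC5 was HIF1α/2α-ko against HIF1α-ko, where it was 9.64-fold lower in mean TPM (log2 difference −2.33 ± 0.28, 95% interval −2.94 to −1.73, adjusted p = 0.000127). As descriptions, WFDC5 differed by −0.04 between HIF1α-ko and vector, and in HIF1α/2α-ko it differed by −2.37 from the vector and by −0.48 from HIF2α-ko.

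Read side by side, the tested members were lower in HIF1α/2α-ko wherever a difference was called. Against the vector, 2 of 2 tested members were lower, with a background of 14.8% of all genes called lower and 31.8% called higher. Against HIF1α-ko, 3 of 3 were lower, with 10.6% of all genes called lower and 17.7% higher. Against HIF2α-ko, 2 of 3 were lower and none higher, with 12.9% of all genes called lower and 33.5% higher. The 3 comparisons share the HIF1α/2α-ko libraries. A fit that blocked by replicate number among the 3 knockout groups called 5684 rather than 3322 of all genes between HIF1α/2α-ko and HIF1α-ko, and the member calls were the same. The median log2 difference of all genes was 0.21, 0.07 and 0.23 in these comparisons, and scaling the libraries to a common median ratio brought it to 0.01, 0.05 and −0.00. Relative to the median of all genes, WFDC3 was at −1.84, −2.52 and −1.78, and SLPI at −1.68, −2.20 and −0.62. PI3 relative to that median was at −2.53 against HIF2α-ko and WFDC5 at −2.41 against HIF1α-ko. The median difference of the tested members was −1.55, −2.33 and −1.54.

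**Figure D2:**
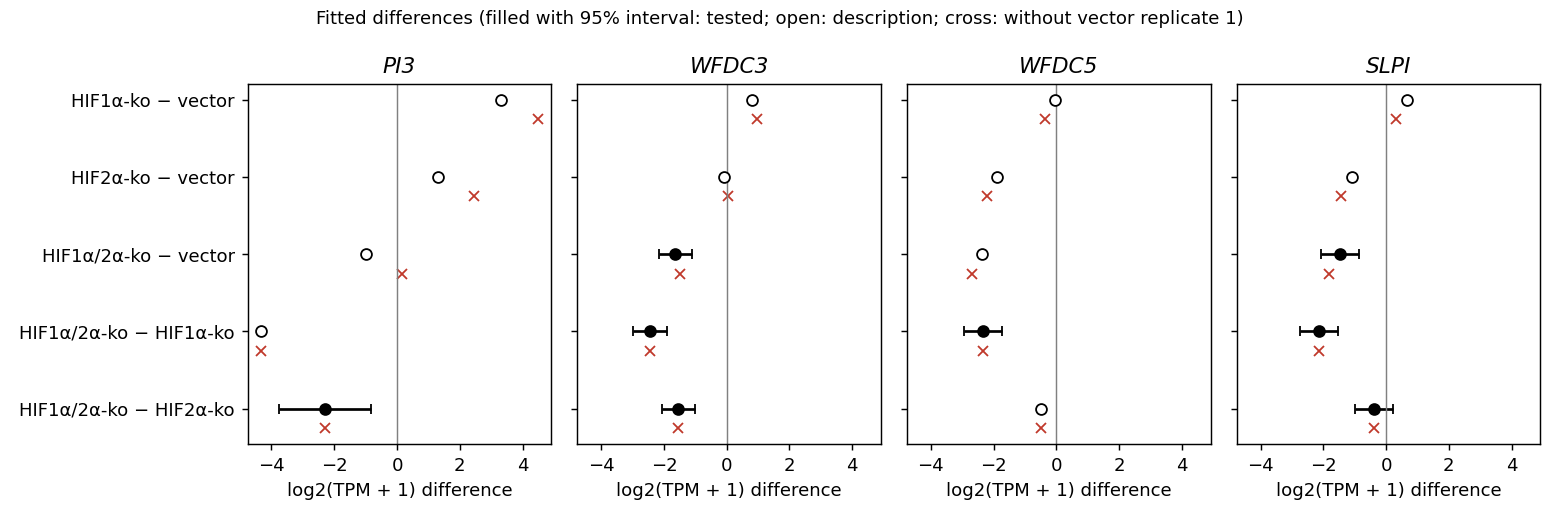
Fitted log2(TPM + 1) differences of PI3, WFDC3, WFDC5 and SLPI in 5 comparisons, the first named group minus the second. Filled points with 95% intervals were tested, open points are descriptions, and crosses leave out vector library 1, which turns PI3 from −1.0 to 0.16 in HIF1α/2α-ko against vector.

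The levels of the members are described here by pair. Over the 12 libraries, which share their groups, Pearson's r of log2(TPM + 1) was 0.918 for SLPI with WFDC5 and 0.798 for PI3 with WFDC3. It was 0.756 for SLPI with WFDC3, 0.750 for WFDC3 with WFDC5, 0.49 for PI3 with SLPI and 0.366 for PI3 with WFDC5. PI3 and WFDC5 were chosen by their levels in different knockout groups, so the r values that involve them follow in part from that choice. SLPI and WFDC5 were both low in HIF2α-ko and HIF1α/2α-ko, whereas PI3 in HIF2α-ko was above vector libraries 2 and 3.

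The members lie within 682 kb, which allowed their neighbours to be read in the order of the chromosome. Of 42 genes of the region that were examined, 14 of them with a WAP domain, 25 passed the filter. Among the 20 neighbours tested that have no WAP domain, 3 were higher and 4 lower in HIF1α/2α-ko against the vector, 2 higher and 5 lower against HIF1α-ko, and 5 higher and 2 lower against HIF2α-ko. Their median differences were −0.04, −0.32 and −0.03. Among all genes, 31.8% were called higher and 14.8% lower against the vector, 17.7% and 10.6% against HIF1α-ko, and 33.5% and 12.9% against HIF2α-ko, and the medians were 0.21, 0.07 and 0.23. The counts of higher neighbours fell to 1 against the vector without vector library 2 or HIF1α/2α-ko library 3, and to 1 against HIF1α-ko without HIF1α-ko library 3 or HIF1α/2α-ko library 3. The count of 2 lower against HIF2α-ko fell to 1 without HIF2α-ko library 2 or 3.

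KCNS1, a potassium channel subunit gene 8.3 kb from WFDC5, was the neighbour with the smallest p against the vector. It was at 21.9, 12.6 and 12.6 TPM in the vector, 19.5, 15.7 and 15.5 TPM in HIF1α-ko, 12.9, 12.9 and 11.8 TPM in HIF2α-ko and 3.54, 3.59 and 4.22 TPM in HIF1α/2α-ko. Like WFDC3, it was lower in HIF1α/2α-ko than in every other library, and the share of all genes with this separation was not counted. Its log2 differences were −1.76 against the vector (adjusted p = 3.11e-05 by limma), −1.90 against HIF1α-ko (adjusted p = 7.25e-05) and −1.51 against HIF2α-ko (adjusted p = 9.03e-05). PIGT, which acts in the attachment of GPI anchors, was lower against the vector (log2 difference −0.82, adjusted p = 0.000414), with no call in the other comparisons (−0.15 and −0.13). ZSWIM1 was lower against the vector (−1.25, adjusted p = 0.000926) and against HIF1α-ko (−1.0, adjusted p = 0.00755). Against HIF2α-ko it was also lower (−0.72, adjusted p = 0.0234), a call lost in 3 alternatives, HIF2α-ko library 2 or 3 left out among them.

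DNTTIP1 was looked at for its position, because 4 bases separate the annotated ends of WFDC3 and DNTTIP1, which are read in opposite directions. Both genes had their highest group mean in HIF1α-ko, but they differed in HIF1α/2α-ko, where WFDC3 had its lowest group mean and DNTTIP1 did not. DNTTIP1 was at 43.9, 36.2 and 35.9 TPM in the vector, 81.8, 53.1 and 60.3 TPM in HIF1α-ko, 30.4, 27.1 and 27.3 TPM in HIF2α-ko and 51.5, 51.8 and 54.9 TPM in HIF1α/2α-ko. In HIF1α/2α-ko against HIF2α-ko it was higher by 0.88 (adjusted p = 0.000724) while WFDC3 was lower, at −1.54. Against the vector it was higher by 0.44 (adjusted p = 0.0345), a call lost in 8 alternatives, including median ratio scaling, where the difference was 0.22, and the removal of vector library 2 or 3 or of any HIF1α/2α-ko library. Against HIF1α-ko the difference was −0.28 (adjusted p = 0.213).

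**Figure D3:**
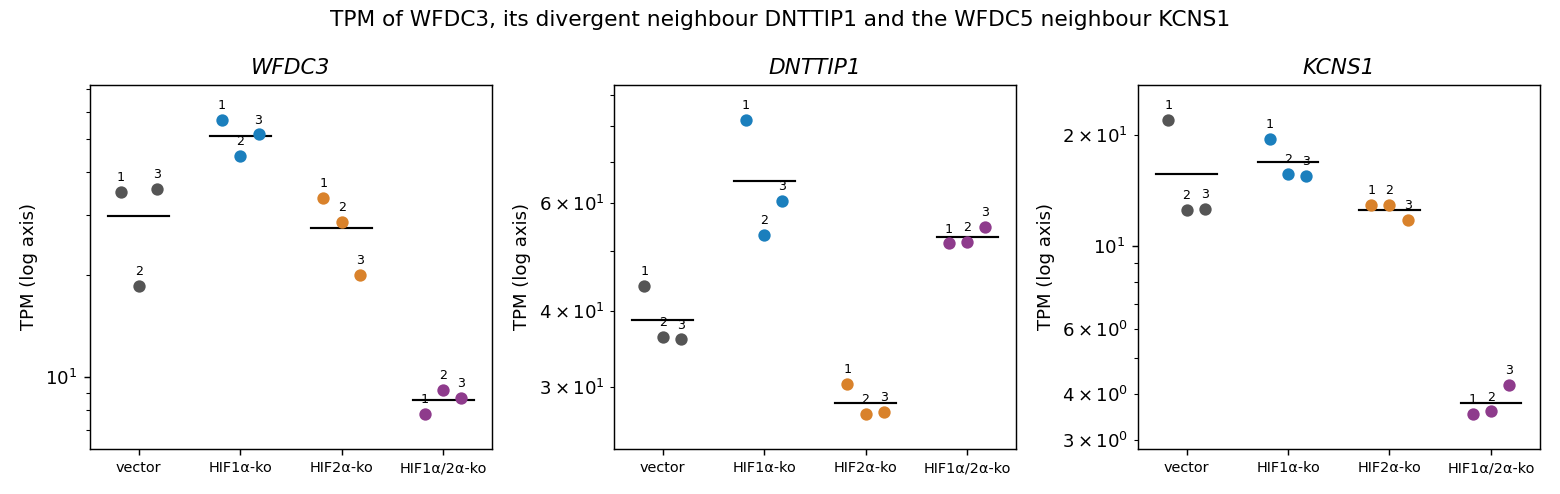
TPM on log axes of WFDC3, its divergent neighbour DNTTIP1 and KCNS1, the neighbour of WFDC5, in each library. Points are libraries numbered by replicate and lines are group means. WFDC3 and KCNS1 are lowest in HIF1α/2α-ko, where DNTTIP1 is at 51.5 to 54.9 TPM, above its HIF2α-ko libraries.

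A stretch at the shared start of WFDC3 and DNTTIP1 is shown because these neighbours moved in opposite directions against HIF2α-ko. Most of it, and the whole motif match in it, lies within the annotated start of DNTTIP1. It is printed on the WFDC3 strand from the RefSeq promoter table of GRCh38.p14, at chr20:45791928-45791957, minus strand, with a TGACGTCA match in capitals.
WFDC3: aagtggcgccgTGACGTCActggagcgcgc
The match, the palindromic cAMP response element, starts 63 bases before the RefSeq start of WFDC3, and 1.65% of 35116 promoters hold it in the 250 bases before their start. Both strands were searched, and the match holds no ACGTG. The hypoxia response cores ACGTG (18.5% of promoters) and GCGTG (32.2%), the AP-1 motif TGANTCA (6.57%) and the NF-κB motif (5.21%) had no match in that window of WFDC3. WFDC2 held GCGTG at −235 and −51. The table has no entry for PI3, SLPI and WFDC5.

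**Figure D4:**
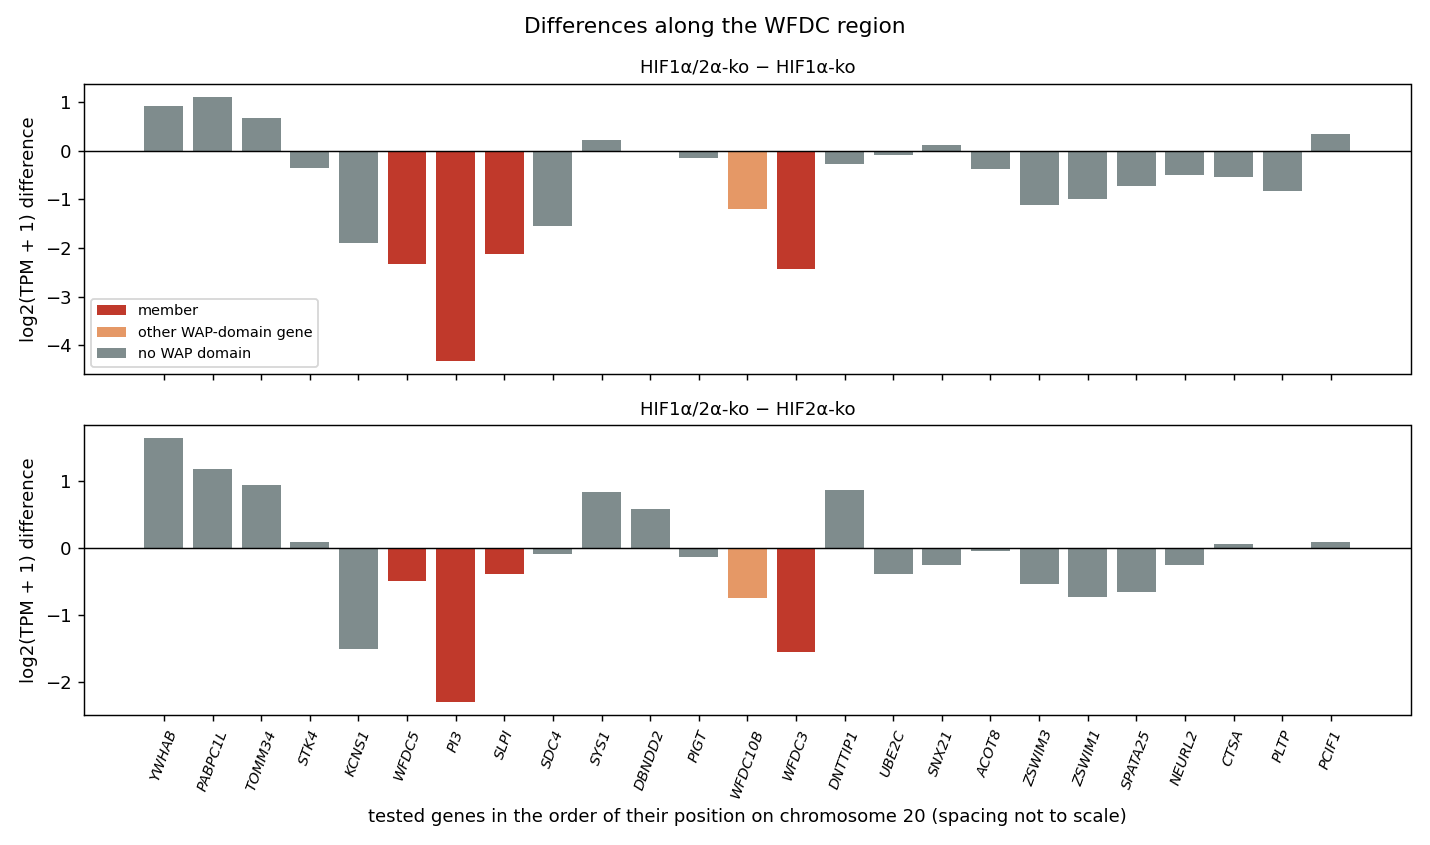
Fitted log2(TPM + 1) differences of the 25 genes of the region past the filter in chromosomal order, for HIF1α/2α-ko minus HIF1α-ko and HIF1α/2α-ko minus HIF2α-ko. Bars start at 0, spacing is not to scale, and colours mark members, the other WAP gene and genes without a WAP domain. The 4 members shown are below 0 in both panels, and the share of all genes below 0 in both was not counted. SLPI against HIF2α-ko was not called (−0.39, 95% interval −0.99 to 0.22). Of the members' bars, PI3 against HIF1α-ko and WFDC5 against HIF2α-ko are untested descriptions, because those libraries chose these genes. KCNS1 is the lowest bar without a WAP domain in each panel.

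Of 13 other WAP-domain genes in the table, 12 stayed below 1 TPM in every library and 6 were listed at 0 throughout. WFDC10B passed the filter, at 3.03, 1.89 and 3.65 TPM in the vector, 2.42, 3.37 and 2.63 TPM in HIF1α-ko, 0.991, 1.84 and 2.67 TPM in HIF2α-ko and 1.04, 0.442 and 0.525 TPM in HIF1α/2α-ko. It was lower in HIF1α/2α-ko, with differences of −1.20 against the vector (adjusted p = 0.00174), −1.20 against HIF1α-ko (adjusted p = 0.00364) and −0.74 against HIF2α-ko (adjusted p = 0.0272). The last call was lost, with an adjusted p of up to 0.120, without HIF2α-ko library 2 or 3 or HIF1α/2α-ko library 2 or 3.

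The proteases that elafin and SLPI block, together with their binding partners, were expressed in part, with 11 of 22 below 1 TPM in every library and 9 tested. In HIF1α/2α-ko, 1 was higher and 3 lower against the vector, 3 were lower and none higher against HIF1α-ko, and 1 was higher and 4 lower against HIF2α-ko, with medians of −0.23, −0.16 and −0.25. Over all genes, the shares called higher and lower were 31.8% and 14.8% against the vector, 17.7% and 10.6% against HIF1α-ko and 33.5% and 12.9% against HIF2α-ko, with medians of 0.21, 0.07 and 0.23. ELANE, which encodes neutrophil elastase, the main target of elafin, was at 1.69, 2.02 and 1.75 TPM in the vector, 1.41, 1.64 and 1.34 TPM in HIF1α-ko, 2.05, 3.79 and 4.35 TPM in HIF2α-ko and 0, 0.954 and 0.449 TPM in HIF1α/2α-ko. It was lowest in HIF1α/2α-ko, with differences of −0.99 against the vector (adjusted p = 0.00578) and −1.60 against HIF2α-ko (adjusted p = 0.000268). Against HIF1α-ko it was lower (−0.80, adjusted p = 0.0297), and this call was lost without any HIF1α-ko library and without HIF1α/2α-ko library 1 or 3. PLSCR1, a scramblase that binds SLPI, was higher against the vector by 1.10 (adjusted p = 0.000254) and against HIF2α-ko by 1.29 (adjusted p = 8.75e-05), and differed by 0.18 against HIF1α-ko (adjusted p = 0.466). ST14, the membrane protease matriptase, was at or below 1.65 TPM and differed by −0.91 from the vector and by −1.06 from HIF2α-ko. It reached 1 TPM only in those groups, and PRTN3, also in this list, only in HIF2α-ko. Their falls from these groups therefore follow in part from the filter and are descriptions. ST14 is among the 3 lower against the vector, and both genes are among the 4 lower against HIF2α-ko. The count of 1 higher against the vector was 2 without vector library 1.

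Among other secreted protease inhibitors, 21 of 33 were tested. In HIF1α/2α-ko, 2 were higher and 7 lower against the vector, 9 were lower and none higher against HIF1α-ko, and 1 was higher and 4 lower against HIF2α-ko, with medians of −0.13, −0.47 and −0.14. For all genes these shares were 31.8% higher and 14.8% lower against the vector, 17.7% and 10.6% against HIF1α-ko and 33.5% and 12.9% against HIF2α-ko, and the medians 0.21, 0.07 and 0.23. SPINT1 is among the lower in all 3 comparisons, at 0.188, 0.207 and 0.205 of the mean TPM of the other group. Its level was near the filter of 1 TPM, so its falls may follow in part from the filter. SERPING1, the C1 inhibitor of complement, was lower in all 3 comparisons, with differences of −2.53, −2.07 and −1.20 and adjusted p-values of 2.10e-06, 3.14e-05 and 0.000293. Its HIF1α/2α-ko libraries were at 2.78, 2.33 and 3.42 TPM, whereas the vector mean was 21.1 ± 1.68 TPM (SD, n = 3). SERPINA1, which encodes alpha-1-antitrypsin and like elafin blocks neutrophil elastase, was lower too, with differences of −1.47, −1.15 and −0.87 in the same order and adjusted p-values of 0.000170, 0.00212 and 0.00586. TIMP4, an inhibitor of metalloproteinases, was higher against the vector by 1.09 (adjusted p = 0.000354) and against HIF2α-ko by 0.73 (adjusted p = 0.00490), with 0.47 against HIF1α-ko (adjusted p = 0.0635, called in 7 alternatives). The count of none higher against HIF1α-ko was 1 without vector library 1, HIF2α-ko library 1 or HIF1α/2α-ko library 1, and the count of 1 higher against HIF2α-ko was 2 without vector library 1.

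Known inducers of elafin and SLPI are cytokines, growth factors and transcription factors of the NF-κB and AP-1 type. The list read here also held IRF1 and NFKBIA, the gene of an NF-κB inhibitor. Of 16 tested, 6 were higher and 3 lower in HIF1α/2α-ko against the vector, 8 higher and 2 lower against HIF1α-ko, and 3 higher and 1 lower against HIF2α-ko. NFKBIA was among the 8 higher against HIF1α-ko. Their medians were 0.76, 0.74 and −0.14. The same shares over all genes were 31.8% and 14.8% against the vector, 17.7% and 10.6% against HIF1α-ko and 33.5% and 12.9% against HIF2α-ko, with medians of 0.21, 0.07 and 0.23. The 3 lower against the vector were FOSL2, JUN and TGFA, and JUN and TGFA were also the 2 lower against HIF1α-ko and FOSL2 the 1 lower against HIF2α-ko, all named after their values were seen. RELB, an NF-κB subunit, was at 39.4, 35.2 and 31.7 TPM in the vector and at 168, 205 and 192 TPM in HIF1α/2α-ko, where PI3 was near the level of vector libraries 2 and 3. RELB was higher by 2.38 against the vector (adjusted p = 3.13e-07), 0.92 against HIF1α-ko (adjusted p = 0.000267) and 1.64 against HIF2α-ko (adjusted p = 2.21e-06). IRF1, an interferon-responsive factor, was higher by 3.66, 2.22 and 2.73 in that order, with adjusted p-values of 2.30e-06, 0.000170 and 1.49e-05. HBEGF, an EGF receptor ligand, was higher by 2.41, 1.82 and 1.22, with adjusted p-values of 0.000607, 0.00721 and 0.0324, and the last call was lost in 7 alternatives, among them each of HIF2α-ko library 1 or 2 and HIF1α/2α-ko library 2 or 3 left out.

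The counts of inducers moved with single libraries. The 6 higher against the vector were 10 without vector library 1, and the 8 higher against HIF1α-ko were 5 without HIF1α-ko library 1 or 3 or HIF1α/2α-ko library 2. The 1 lower against HIF2α-ko was 4 without vector library 1, 2 without vector library 3 or HIF1α/2α-ko library 1, and 0 without any HIF2α-ko library. Vector library 1, in which PI3 was high, was also high in cytokine genes that were picked after their values were seen. In it IL1B was at 101 TPM against 7.65 and 6.49 TPM in vector libraries 2 and 3, and IL6 was at 214 TPM against 18.8 and 19.3 TPM. In HIF1α/2α-ko, IL1B was at 19.8, 90.9 and 98.4 TPM while PI3 was at 12.5, 18.8 and 21.2 TPM. Whether the cytokine levels had a part in the PI3 level of vector library 1 was not tested.

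Markers of the cells that usually make these inhibitors were also read. Of 7 markers of epithelial cells and keratinocytes, 5 (EPCAM, CDH1, KRT5, KRT14 and IVL) were below 1 TPM in every library, and KRT8 and KRT18 made up most of the sum. That sum was 25.7 to 34.2 TPM in the vector, 21.8 to 27.0 TPM in HIF1α-ko, 37.9 to 50.8 TPM in HIF2α-ko and 22.7 to 32.9 TPM in HIF1α/2α-ko. The part of such cells in the PI3 level was not tested. Of 6 leukocyte markers, 5 were below 1 TPM in every library, S100A8 and S100A9 were listed at 0 throughout, and their sum did not exceed 1.77 TPM.

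The genes whose levels were most like each member over the 12 libraries were listed as a description, by Pearson's r of log2(TPM + 1) among genes with a mean of at least 5 TPM. For PI3 they were SCG5, a secretory granule chaperone (0.971), PYROXD2 (0.969) and CTSK, the protease cathepsin K (0.968), and these 3 also led without vector library 1. For SLPI they were GLUL, glutamine synthetase (0.942), the matrix protein gene TGFBI (0.936) and STXBP6 (0.928), and without vector library 1 they were ACKR3, F2R and TGFBI. For WFDC3 they were MAGED4B (0.966), HLA-DRB5 (0.959) and the creatine transporter gene SLC6A8 (0.950), where MAGED4B and HLA-DRB5 have near-identical relatives that can share reads. Without vector library 1, CA12 took the place of SLC6A8. For WFDC5 they were the kinase gene NEK6 (0.977), SMAD3, an effector of TGF-beta signalling (0.968), and MARCHF3 (0.957), which also led without vector library 1. The 12 libraries fall into 4 groups and are not separate points.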

How the data were processed

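mRNA of U-87 MG cells in 4 groups of 3 libraries was sequenced. Per the submitters' processing notes, FastQC 0.11.2, Trimmomatic 0.36, HISAT2 2.0 and bedtools 2.26.0 were used with GRCh38. The counting tool, its annotation and strand setting, how the knockouts were made and whether each line was 1 clone are not given in the sources used here. The deposited values are TPM computed by the authors, with library sums of 999955 to 999982. The read depth is unknown, so no counting interval is given.

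Library groups were taken from the sample titles, and table columns without a knockout code were read as the vector. Gene IDs were matched to symbols (20148 of 20263), and positions and coding stretches came from a GRCh38 annotation. R 4.3.3 with limma 3.58.1 was used to fit differences on log2(TPM + 1), with a mean-variance trend, for 11731 genes with at least 1 TPM in at least 3 libraries, in 1 model of the 4 groups. P-values were adjusted by Benjamini-Hochberg within each comparison and called at 0.05. The fit was tested on simulated data. No member was tested in a single knockout against the vector, and PI3 and WFDC5 were tested only in comparisons free of the libraries that chose them. The members and lists were chosen with earlier results of these data known. Named genes were the members, every other WAP-domain gene past the filter, the 3 genes of each other list with the smallest p between HIF1α/2α-ko and vector, and the 3 genes most like each member. DNTTIP1, IL1B, IL6, FOSL2, JUN, TGFA, PRTN3, SPINT1 and NFKBIA were added outside this rule.

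Same-numbered libraries deviated together among the 3 knockout groups (r of deviations from group means 0.196 to 0.508). Between the vector and the knockouts they did so less or not at all (−0.0265 to 0.163), and no cut-off or test separates these ranges. The numbers were treated as pairing the knockout libraries, from the values alone, but only in alternative fits with a replicate block. A block over all 4 groups was also among the alternatives. The main fit held no block, so its intervals and p-values leave this pairing out. Alternatives were a pseudocount of 0.1, no filter or a mean of at least 5 TPM, median ratio or quantile scaling, 2 groups only, no trend, a replicate block, and each library left out. Replicate 1 as a batch term was added after seeing the data.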

Additional observations from a re-analysis of the deposited data

Results flagged for a closer look

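HIF1α knockout, as labelled, went with opposite moves of PI3 in the 2 HIF2α states, which is why it is listed here. The HIF1A transcript does not check the second contrast, HIF1α/2α-ko against HIF2α-ko, where it differed by −0.19 (adjusted p = 0.453 by limma). In HIF1α/2α-ko HIF1A was higher than in HIF1α-ko, by 0.64 (adjusted p = 0.0287 by limma). With HIF2α intact, PI3 differed by 3.32 on the log2(TPM + 1) scale between HIF1α-ko and vector, with every HIF1α-ko library above every vector library. With HIF2α knocked out, it differed by −2.29 between HIF1α/2α-ko and HIF2α-ko, with every HIF1α/2α-ko library below every HIF2α-ko library. WFDC3 moved in the same manner, by 0.81 and by −1.54. For PI3 the move with HIF2α intact restates in part its choice. The share of all genes with such opposite moves free of overlap was not counted. The difference between the 2 contrasts was not tested, because the first contrast chose the members. Without vector library 1 the first contrast gave 4.48 for PI3 and 0.95 for WFDC3. With 3 libraries a group, single libraries were not screened as outliers.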

How the results depend on the processing

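The 8 tested member results kept their direction and their side of the threshold in all 179 alternative values, and the highest adjusted p of the 7 called results was 0.0457 (limma). With each library left out in turn, the log2 differences in HIF1α/2α-ko ranged as follows. Against the vector, SLPI ranged from −1.81 to −1.28 and WFDC3 from −1.93 to −1.48. Against HIF1α-ko, SLPI ranged from −2.28 to −2.0, WFDC3 from −2.53 to −2.36 and WFDC5 from −2.43 to −2.18. Against HIF2α-ko, PI3 ranged from −2.44 to −2.08, SLPI from −0.54 to −0.26 and WFDC3 from −1.75 to −1.38. The replicate block among the 3 knockout groups changed no member call.

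Among the untested differences, WFDC5 between HIF2α-ko and vector was −2.45 without replicate 1 of every group, and −2.20 to −1.69 with single libraries left out, while PI3 between HIF1α-ko and vector was 2.72 to 4.48. PI3 between HIF1α/2α-ko and vector, at −1.60 to 0.16 with single libraries left out, turned to 0.16 without vector library 1 and to 0.37 without replicate 1 of every group. WFDC5 between HIF1α-ko and vector, at −0.35 without vector library 1, turned to 0.07, 0.16, 0.05 and 0.02 without vector library 2, vector library 3, HIF1α-ko library 2 and HIF1α-ko library 3. WFDC3 between HIF2α-ko and vector, at −0.39 without vector library 2, turned to 0.05, 0.07 and 0.11 without vector library 1, vector library 3 and HIF2α-ko library 3. The cause was not tested.

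Between HIF1α/2α-ko and HIF1α-ko, the 3322 genes called became 5684 with the replicate block and 5276 without replicate 1 of every group, and 2310 to 4072 with single libraries left out. The 5473 called against the vector became 4319 to 5961 with single libraries left out, and the 5442 called against HIF2α-ko became 4237 to 6004. Over all alternatives, the 3060 genes called between HIF1α-ko and vector ranged from 1552 to 6461, and the 1286 between HIF2α-ko and vector from 471 to 4283. The split of higher and lower calls moved with scaling. Against the vector, 3732 higher and 1741 lower became 2854 and 2600 under median ratio scaling, or 2829 and 2848 under quantile normalization. Against HIF1α-ko, 2076 and 1246 became 2011 and 1410, and 1822 and 1826. Against HIF2α-ko, 3933 and 1509 became 2748 and 2468, and 2736 and 2614. TPM files keep no depth, so how precisely the low values of SLPI and WFDC5 were measured cannot be stated.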
